A study of Mus musculus with 12 samples.

Results

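The genes described here encode the mitochondrial respiratory chain and ATP synthase from the nucleus. They were taken as every measured gene whose single platform symbol begins with Nduf, Uqcr, Atp5 or Cox4 to Cox8, together with Sdha, Sdhb, Sdhc, Sdhd and Cyc1. The rule found 87 of 21212 probe sets, with 1 probe set per gene. By symbol, 37 belong to complex I, 7 are assembly factors of complex I, 4 belong to complex II, 8 to complex III, 17 to complex IV and 14 to ATP synthase. Ndufa4 and Ndufa4l2 were kept in complex I by symbol, although the proteins of this family are now assigned to complex IV. Liver RNA came from 4 groups of 3 mice: KK females, KK males, C57BL/6J females and C57BL/6J males. KK is an inbred mouse strain known for obesity and insulin resistance, and C57BL/6J is a common laboratory strain. One label of the KK mice gives the strain as KK/HIJ and another as KK/J. All 12 mice were fed chow and studied at 8 weeks of age, after 3 days of single housing and a fast of 4 hours, and carried no transgene or treatment in the labels. After cervical dislocation and perfusion with PBS, the large lobe was held in RNAlater for 24 hours and frozen. Each mouse had 1 Affymetrix whole-transcript array, for which 300 ng of total RNA was labelled.

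The respiratory chain carries electrons from NADH and succinate to oxygen through complexes I to IV in the inner mitochondrial membrane. Complexes I, III and IV pump protons as they do so, and ATP synthase, also called complex V, uses the returning protons to make ATP. Some subunits of complexes I, III, IV and V are encoded by mitochondrial DNA and were not part of the set, while complex II is encoded wholly in the nucleus. In hepatocytes the chain supplies ATP for glucose and urea synthesis and takes up the electrons released by fatty acid oxidation. RNA levels were measured, not protein, complex assembly or respiration.

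Values are deposited log2 expression values, on which a difference of 1 is a doubling, and a difference is KK minus C57BL/6J or male minus female. A gene was called where limma's p, adjusted over all 21212 probe sets, was under 0.05. As a guide to background, 3 Y-linked genes read 3.79 to 4.66 in the 6 female arrays. The background of other probe sets was not measured, and 5 striated muscle markers read between 3.99 (Myl1) and 6.91 (Acta1). At an alternative level of 5.19, the mean of the Y-linked values plus 1, 5 of the 87 genes were near background. Of the 87 genes, 78 lay above the median level of all probe sets, and Ndufb4 and Cox7b2 did not exceed 4.66 in the mean of any group. The median SD within a group was 0.082 for these genes, against 0.118 for all probe sets and 0.130 for those above the median level. Array medians were 5.90 to 6.03 and interquartile ranges 2.64 to 2.97. Because these are tissue arrays, fewer cells of a type and less RNA per cell cannot be told apart. Of 7 hepatocyte markers 1 was lower in KK, and their summed level was 16.16 to 16.23 in KK and 16.25 to 16.31 in C57BL/6J. Lower in KK were 3 of 7 markers of Kupffer cells and macrophages (sums of 10.45 to 12.40 in KK and 11.05 to 11.79 in C57BL/6J), 2 of 6 of sinusoidal endothelium and 1 of 6 of stellate cells. Both measured erythroid markers were higher in KK, where their sum was 9.94 to 10.79, against 8.38 to 10.17 in C57BL/6J. The part of these cells in the differences below was not tested.

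Between the strains, 23 of the 87 genes were called (26.4%), of which 5 were higher in KK and 18 lower. Cox6a1 of complex IV had the largest called increase. Ndufc2 of complex I had the largest called decrease apart from Atp5g1, which was measured close to the background level. The called share of all probe sets was 11.7%, and that of all probe sets above the median level, where most of these genes lie, was 20.2%. Among the 78 genes above the median level, 21 were called (26.9%). The share called higher, 5.75%, was near the 5.42% of all probe sets, and among genes above the median level it was 5.13%, against 8.95%. The share called lower was 20.7%, against 6.31% of all probe sets, and above the median level it was 21.8%, against 11.2%. The differences were small: 60 of 87 lay below 0 (69.0%), against 46.8% of all probe sets and 52.0% of those above the median level. The median was -0.06, against 0.01 over all probe sets and -0.01 over those above the median level. This lean to lower values depended in part on the scaling of the arrays. After quantile normalization, 8 genes were higher (7.05% of all probe sets) and 13 lower (6.75% of all probe sets), 50 of 87 lay below 0 and the median was -0.02. After cyclic loess normalization, 7 were higher (6.9% of all probe sets) and 12 lower (6.79% of all probe sets), and the median was -0.03. The share of all probe sets below 0 was not counted after these normalizations. Lower calls thus made up 78.3% of the calls as deposited, 61.9% after quantile and 63.2% after cyclic loess normalization. All 6 KK values lay above all 6 C57BL/6J values for 3 genes, Cox6a1, Ndufaf5 and Sdhc, where the share of all probe sets was 2.66%. They lay below for 11 genes, where the share of all probe sets was 3.32%. Of the 10606 probe sets above the median level, KK lay wholly above for 482 and wholly below for 625. Against these, the share of the set lying above was smaller and the share lying below was larger.

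**Figure D1:**
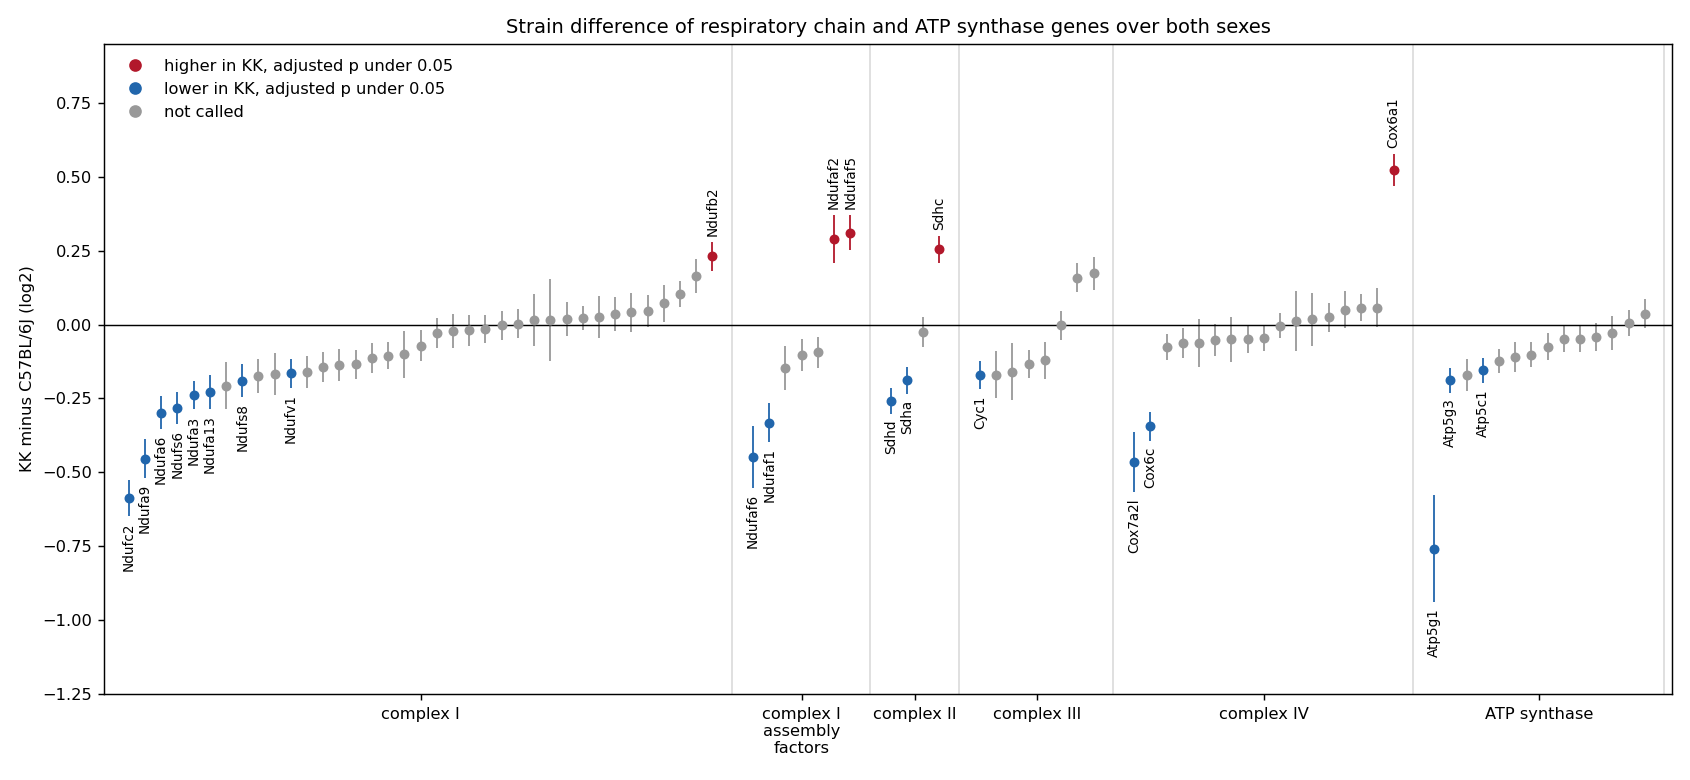
Difference between the strains for each of the 87 genes over both sexes (vertical axis, KK minus C57BL/6J, log2), ordered within each class along the horizontal axis. Points are limma estimates, bars are 1 SE, red and blue mark the 5 genes called higher and the 18 called lower in KK, and grey marks genes not called. Most points lie between -0.2 and 0.2, and the called genes of complexes I, II and IV and of the assembly factors lie on both sides of 0.

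Many promoters of this set are known to carry sites for NRF1 and for the ETS factor GABP, which drive nuclear genes of the respiratory chain. The 250 bases before the start of 4 of the genes are shown from RefSeq (build GRCm38.p6), 5′ to 3′ on the strand of the gene, with motif matches in capitals. Cox6a1 is shown as the gene with the largest called increase and Sdha as a called complex II gene with several matches, while Ndufc2 and Ndufa9 had the largest called decreases in complex I. They lie at chr5:115348959-115349208 (minus strand, Cox6a1), chr13:74350241-74350490 (minus strand, Sdha), chr7:97399753-97400002 (plus strand, Ndufc2) and chr6:126849145-126849394 (minus strand, Ndufa9).
Cox6a1: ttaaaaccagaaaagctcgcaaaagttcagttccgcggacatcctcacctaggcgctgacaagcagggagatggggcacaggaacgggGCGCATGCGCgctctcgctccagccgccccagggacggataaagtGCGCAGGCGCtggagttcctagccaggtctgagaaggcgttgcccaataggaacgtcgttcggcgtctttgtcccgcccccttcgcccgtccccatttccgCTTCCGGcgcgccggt
Sdha: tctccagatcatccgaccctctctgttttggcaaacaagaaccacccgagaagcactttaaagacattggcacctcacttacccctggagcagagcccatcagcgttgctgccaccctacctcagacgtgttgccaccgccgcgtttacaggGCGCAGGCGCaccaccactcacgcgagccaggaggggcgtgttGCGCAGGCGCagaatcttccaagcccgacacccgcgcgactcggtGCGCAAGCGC
Ndufc2: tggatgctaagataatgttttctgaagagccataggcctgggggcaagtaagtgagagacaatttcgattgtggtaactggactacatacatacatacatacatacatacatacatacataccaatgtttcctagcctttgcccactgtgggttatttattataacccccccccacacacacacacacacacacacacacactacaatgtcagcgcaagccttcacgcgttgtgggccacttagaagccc
Ndufa9: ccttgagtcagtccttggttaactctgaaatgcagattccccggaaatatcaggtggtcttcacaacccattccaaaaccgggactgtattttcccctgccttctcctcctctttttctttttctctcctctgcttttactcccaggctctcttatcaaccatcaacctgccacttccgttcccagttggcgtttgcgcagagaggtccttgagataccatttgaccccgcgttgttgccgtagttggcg
Motifs were searched on both strands: NRF1 as GCGC, then any base N, then TGCGC, ETS as CCGGAAG, YY1 as AAGATGGC and ERRA as TCAAGGTCA. The Cox6a1 window held NRF1 matches at -162 to -153 and at -117 to -108 from the start and an ETS match at -16 to -10. The Sdha window held NRF1 matches at -98 to -89, -55 to -46 and -10 to -1. None of the 4 motifs was found in the Ndufc2 and Ndufa9 windows. Of the 87 genes, 69 had an entry. The NRF1 motif was found for 13 of them (18.8%), against 4.23% of 27025 genes, and the ETS motif for 11 (15.9%), against 7.83%. YY1 was found for 1 (1.45%), against 1.83%, and ERRA for 1, Atp5g3 (1.45%), against 0.422%. NRF1 matches were found in 1 of 4 genes called higher, 4 of 15 called lower and 8 of 50 not called. The median GC content of the windows was 56.8%, against 52.4% for all genes. A match is a description of letters and not evidence of binding.

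Complex I takes electrons from NADH and passes them to ubiquinone. Of its 37 genes, 8 were lower in KK, 1 was higher and 28 were not called, with differences of -0.21 to 0.16 for these. Over all probe sets 6.31% were called lower and 5.42% higher, and above the median level 11.2% and 8.95%. The median of complex I was -0.07, and it was -0.0039 after quantile normalization. Ndufc2, an accessory subunit of the membrane arm, measured 9.38, 9.14 and 9.43 in KK females, against 9.93, 9.80 and 9.98 in C57BL/6J females. In males it measured 9.14, 9.19 and 9.28 in KK, against 9.81, 9.70 and 9.86 in C57BL/6J. No KK mouse of either sex reached the lowest C57BL/6J mouse, and the difference was -0.59 (SE 0.06, adjusted p = 5.3e-05). Ndufa9, an accessory subunit where the matrix and membrane arms meet, measured 9.71, 9.56 and 9.86 in KK females, against 10.17, 10.20 and 10.33 in C57BL/6J females. Its male values were 9.77, 9.76 and 9.95 in KK, against 10.13, 10.17 and 10.33 in C57BL/6J. Again the strains did not overlap, with a difference of -0.45 (SE 0.07, adjusted p = 0.00062), or 1.37-fold lower in KK.

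The other lower complex I genes differed by less. Ndufa6, an accessory subunit of the LYR protein family, ranged from 8.91 to 9.16 with a median of 9.09 in KK, against 9.27 to 9.42 with a median of 9.36 in C57BL/6J, a difference of -0.30. Ndufs6, an accessory subunit that binds zinc, ranged from 8.70 to 8.93 (median 8.81) in KK and from 8.95 to 9.27 (median 9.10) in C57BL/6J, a difference of -0.28. Ndufa3, an accessory subunit of the membrane arm, ranged from 9.93 to 9.98 (median 9.96) in KK and from 10.14 to 10.38 (median 10.16) in C57BL/6J, a difference of -0.24. The strains did not overlap for any of these 3 genes, although the gap for Ndufs6 was narrow. Ndufa13, also known as GRIM-19, fell by 0.23 and its ranges overlapped slightly, at 8.40 to 8.81 in KK and 8.78 to 8.97 in C57BL/6J. The core subunits Ndufs8, which holds iron-sulfur clusters, and Ndufv1, which binds NADH, were lower by small amounts that were near the threshold. Ndufs8 differed by -0.19 (adjusted p = 0.044) and stayed called when C57BL/6J male 2 or C57BL/6J female 1 was left out, but lost it when any other array was omitted. Ndufv1 differed by -0.16 (adjusted p = 0.049) and kept its call only when C57BL/6J female 3 was left out. Both lost their calls after quantile and cyclic loess normalization and with an intensity trend in the prior, Ndufs8 also with array weights, and Ndufv1 also with the replicate block (adjusted p = 0.055). Their adjusted p after quantile normalization was 0.13 for Ndufs8 and 0.23 for Ndufv1. Ndufa13 lost its call without C57BL/6J female 1 or C57BL/6J male 3, and after quantile (adjusted p = 0.13) and cyclic loess normalization (adjusted p = 0.11).

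Ndufb2, another accessory subunit of the membrane arm, was the only complex I gene called higher, by 0.23 (SE 0.05, adjusted p = 0.0084). It measured 7.44, 7.51 and 7.61 in KK females, against 7.17, 7.14 and 7.03 in C57BL/6J females. In males it measured 7.49, 7.35 and 7.44 in KK, against 7.41, 7.33 and 7.38 in C57BL/6J. The female values were apart and the male values overlapped: the difference was 0.41 in females (adjusted p = 0.0036) and 0.05 in males (adjusted p = 0.76). The difference between these, -0.35, was not called by limma (adjusted p = 0.42). At the other end, Ndufa5 had the smallest absolute difference of the complex, with ranges of 8.12 to 8.35 in KK and 8.17 to 8.27 in C57BL/6J.

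**Figure D2:**
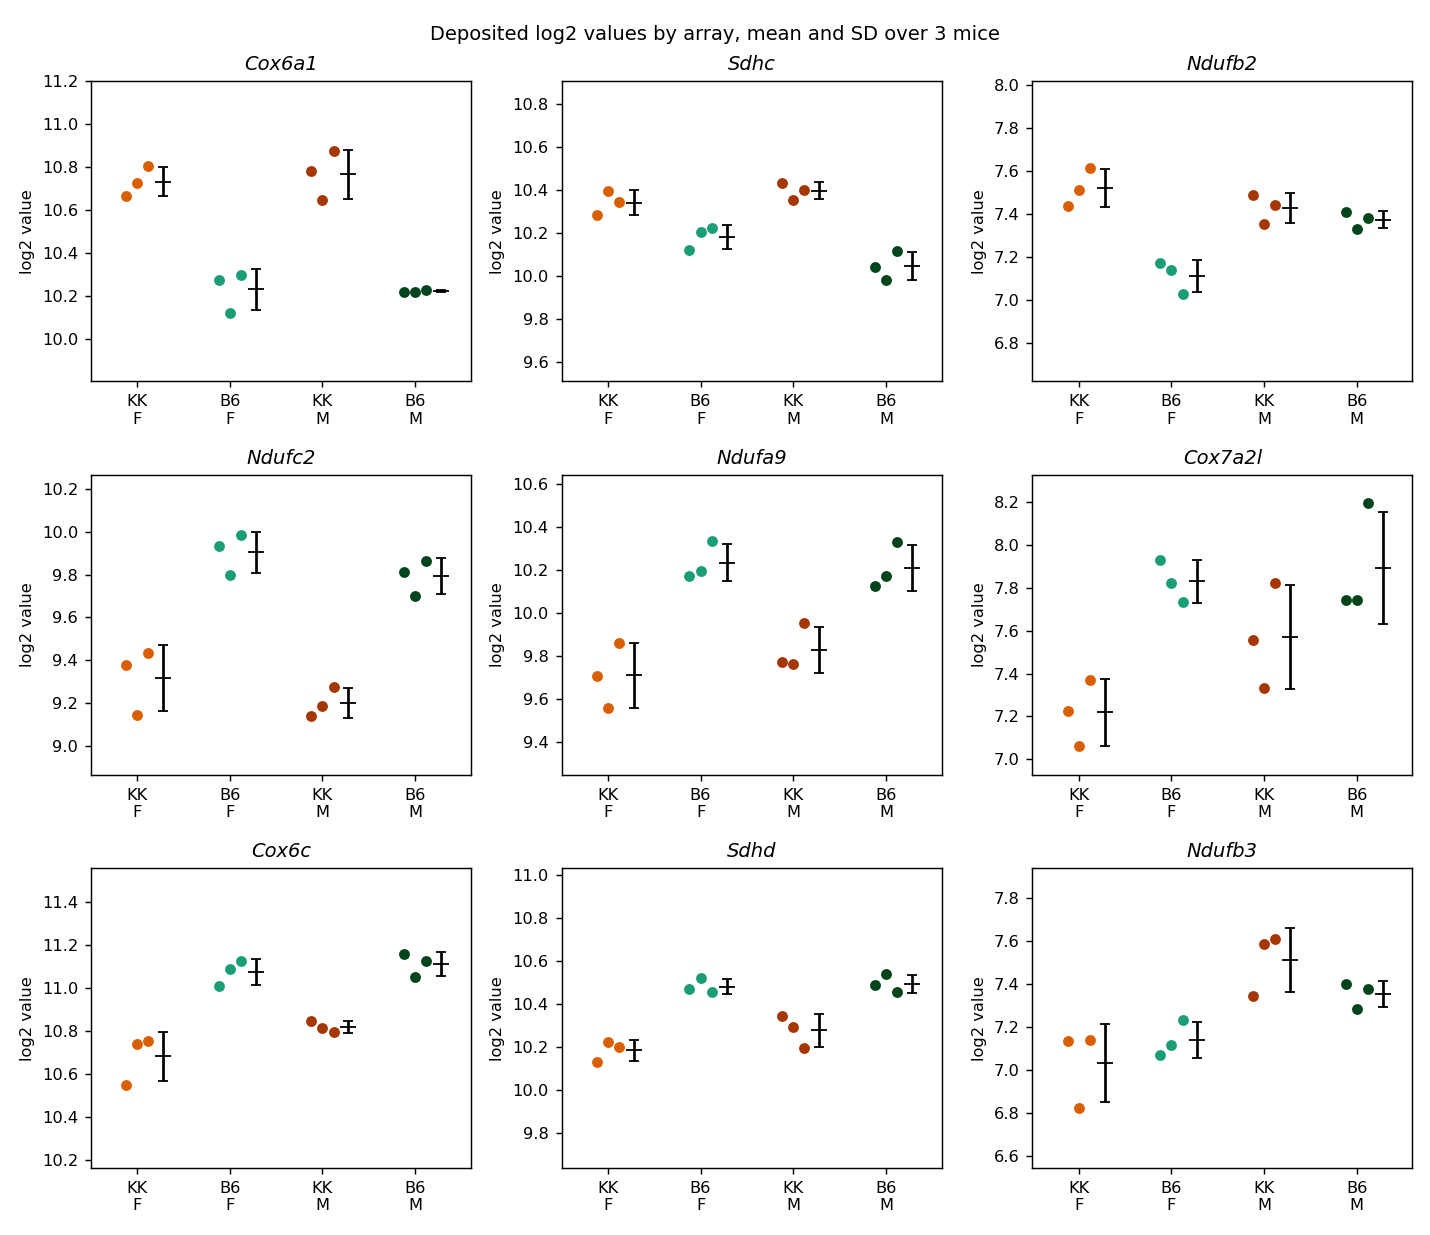
Deposited log2 values of 9 genes (vertical axis, 1 panel per gene, each spanning the same log2 range) in KK females, C57BL/6J females, KK males and C57BL/6J males (B6 on the axis). Each point is 1 mouse and the bar beside each group is the mean with SD over 3 mice. Cox6a1 and Sdhc lie higher in KK of both sexes, Ndufc2, Ndufa9, Cox6c and Sdhd lie lower, Ndufb2 is apart only in females, and Ndufb3 lies higher in males.

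The 7 Ndufaf genes encode factors that help to build complex I and are not part of the finished enzyme. They were called in both directions, 2 higher and 2 lower, where the shares of all probe sets were 5.42% and 6.31%. Ndufaf1, a factor of membrane arm assembly, ranged from 8.04 to 8.42 (median 8.21) in KK, against 8.51 to 8.65 (median 8.55) in C57BL/6J. The difference of -0.33 (adjusted p = 0.0064) left no overlap. Ndufaf6 ranged from 5.75 to 6.33 (median 6.15) in KK, against 6.36 to 6.76 (median 6.56) in C57BL/6J, a difference of -0.45 (adjusted p = 0.014). Ndufaf5, a methyltransferase-like factor, was higher by 0.31 (adjusted p = 0.0047), but close to the background level, at 4.94 to 5.19 in KK and 4.57 to 4.85 in C57BL/6J. Ndufaf2 was higher by 0.29 (adjusted p = 0.035), at 7.23 to 7.58 in KK and 6.99 to 7.35 in C57BL/6J, and kept its call in 4 of the 12 fits without 1 array. These 4 were the fits in which KK female 2, KK male 2, C57BL/6J male 3 or C57BL/6J female 3 was left out. The uncalled Ndufaf3, Ndufaf4 and Ndufaf7 differed by -0.15 to -0.09.

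Complex II, succinate dehydrogenase, also belongs to the citric acid cycle, and 3 of its 4 genes were called, in opposite directions. The called share was 11.7% of all probe sets and 20.2% of those above the median level. Sdhc and Sdhd encode the pair of membrane anchor subunits. Sdhc measured 10.28, 10.40 and 10.34 in KK females, against 10.12, 10.20 and 10.22 in C57BL/6J females. In males it measured 10.43, 10.36 and 10.40 in KK, against 10.04, 9.98 and 10.12 in C57BL/6J. Every KK value was above every C57BL/6J value, and Sdhc was higher by 0.25 (SE 0.05, adjusted p = 0.0025). Sdhd measured 10.13, 10.22 and 10.20 in KK females, against 10.47, 10.52 and 10.46 in C57BL/6J females. Its male values were 10.34, 10.29 and 10.19 in KK, against 10.49, 10.54 and 10.45 in C57BL/6J. Every KK value was below every C57BL/6J value, and the difference was -0.26 (SE 0.04, adjusted p = 0.0021). Sdha, the FAD-bearing catalytic subunit, ranged from 11.19 to 11.39 (median 11.34) in KK, against 11.38 to 11.58 (median 11.50) in C57BL/6J. Its difference of -0.19 (adjusted p = 0.016) came with ranges that just touched. Sdhb, the iron-sulfur subunit, was not called, at 9.68 to 9.90 in KK and 9.75 to 9.89 in C57BL/6J.

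Complex III passes electrons from ubiquinol to cytochrome c, and 1 of its 8 genes was called. That share was near the 11.7% of all probe sets and below the 20.2% of those above the median level. Cyc1, the haem-bearing cytochrome subunit, ranged from 10.48 to 10.68 (median 10.63) in KK, against 10.67 to 10.90 (median 10.74) in C57BL/6J. It differed by -0.17 (adjusted p = 0.039) and kept its call without KK female 3 or C57BL/6J male 1, but not without any other array. The call was also lost after quantile (adjusted p = 0.065) and cyclic loess normalization (adjusted p = 0.078). Uqcr10, a small accessory subunit, had the largest absolute difference, at 9.14 to 9.41 in KK and 9.02 to 9.16 in C57BL/6J, and was not called (0.17, adjusted p = 0.061). Uqcrfs1, the Rieske iron-sulfur subunit, had the smallest, at 8.30 to 8.48 in KK and 8.24 to 8.48 in C57BL/6J. The 7 uncalled genes spanned -0.17 to 0.17.

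Complex IV, cytochrome c oxidase, hands the electrons to oxygen. Of 17 genes, Cox6a1 was higher in KK, Cox6c and Cox7a2l were lower, and the other 14 differed by only -0.08 to 0.06. The called share lay between the 11.7% of all probe sets and the 20.2% of those above the median level. Cox6a1 is the widely expressed form of subunit VIa, and its promoter is the first of those shown above. It measured 10.67, 10.72 and 10.80 in KK females, against 10.27, 10.12 and 10.29 in C57BL/6J females. In males it measured 10.78, 10.64 and 10.87 in KK, against 10.22, 10.22 and 10.23 in C57BL/6J. The lowest KK mouse lay above the highest C57BL/6J mouse, and the difference of 0.52 (SE 0.05, adjusted p = 4.0e-05) was 1.44-fold. Cox6c, a small accessory subunit, measured 10.55, 10.74 and 10.76 in KK females, against 11.01, 11.09 and 11.13 in C57BL/6J females. Its male values were 10.85, 10.82 and 10.80 in KK, against 11.16, 11.05 and 11.13 in C57BL/6J. The strains were apart in both sexes, by -0.34 in all (SE 0.05, adjusted p = 0.00061).

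Cox7a2l encodes a protein that joins complexes III and IV into a supercomplex, and C57BL/6J is known to carry a shorter form of this protein. It measured 7.23, 7.06 and 7.37 in KK females, against 7.93, 7.82 and 7.73 in C57BL/6J females. In males it measured 7.56, 7.33 and 7.82 in KK, against 7.74, 7.74 and 8.19 in C57BL/6J. Females were apart and males overlapped, and the difference over both was -0.47 (SE 0.10, adjusted p = 0.0097). Isoforms known from other tissues were not called. Those of striated muscle differed by 0.01 (Cox6a2), -0.06 (Cox7a1) and 0.02 (Cox8b), the form known from lung by 0.05 (Cox4i2), and those known from testis by -0.05 (Cox6b2), -0.00 (Cox7b2) and -0.06 (Cox8c). The summed level of 5 striated muscle markers was 7.95 to 8.29 in KK and 7.95 to 8.14 in C57BL/6J.

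ATP synthase had 3 genes lower in KK and 0 higher among 14 in the limma fit, and the uncalled genes spanned -0.17 to 0.04. Over all probe sets 6.31% were called lower and 5.42% higher, and above the median level 11.2% and 8.95%. At an unadjusted p under 0.05, 7 ATP synthase genes were lower in KK and 0 were higher, against 11.9% of all probe sets lower and 10.7% higher. Above the median level these shares were 20.3% and 16.1%. Of the 37 complex I genes, 17 were lower and 3 higher at the same p. Atp5g1, Atp5g2 and Atp5g3 are separate genes that encode the same mature subunit c, the ring through which protons pass, and Atp5g1 and Atp5g3 were in the set. Atp5g3 ranged from 11.19 to 11.43 (median 11.32) in KK, against 11.45 to 11.59 (median 11.49) in C57BL/6J. The strains did not overlap, with a difference of -0.19 (SE 0.04, adjusted p = 0.011), and after cyclic loess normalization its adjusted p was 0.061. Atp5g1 differed by -0.76 (SE 0.18, adjusted p = 0.017), which was the largest difference in the set, but near the background level and with wide scatter. It measured 4.67, 4.36 and 4.93 in KK females, against 5.10, 5.50 and 6.11 in C57BL/6J females. In males it measured 4.66, 5.41 and 4.74 in KK, against 5.72, 5.25 and 5.64 in C57BL/6J. The KK values began inside the range of the Y-linked genes in females, and the size of this difference is therefore uncertain. Atp5c1, the gamma subunit that turns within the catalytic head, ranged from 11.44 to 11.56 (median 11.52) in KK, against 11.59 to 11.73 (median 11.67) in C57BL/6J. Its difference was -0.15 (adjusted p = 0.034), and its call was kept without KK female 3 or C57BL/6J female 3, but not without any other array. It was also lost after quantile (adjusted p = 0.094) and cyclic loess normalization (adjusted p = 0.14). Atp5mpl had the smallest absolute difference, at 10.66 to 10.84 in KK and 10.69 to 10.85 in C57BL/6J.

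In females alone, 3 genes were higher in KK (3.18% of all probe sets) and 9 lower (3.31% of all probe sets). In males alone, 2 were higher (2.08% of all probe sets) and 5 lower (3.06% of all probe sets). Of 10606 probe sets above the median level, 576 were higher and 606 lower in females. In males these counts were 374 and 586. Against these, the share of the set called lower was larger in females and about the same in males. The share called higher was smaller in both sexes. Cox6a1, Ndufc2, Ndufa9 and Cox6c were called in both sexes. Cox6a1 differed by 0.50 in females and 0.55 in males, and Ndufc2 by -0.58 in females and -0.59 in males. Ndufa9 differed by -0.53 in females and -0.38 in males, and Cox6c by -0.39 in females and -0.29 in males. Called in females and not in males were Ndufb2, Ndufaf5, Cox7a2l, Ndufaf1, Sdhd, Ndufa3, Sdha and Atp5g3. Called in males and not in females were Sdhc (0.35 in males, 0.16 in females), Ndufs6 and Ndufa6. A call in 1 sex does not show that the strains differ more there: limma's interaction was called for 0 of 87 genes, against 0.141% of all probe sets, and 2 had an unadjusted p under 0.05. Those were Ndufb2 and Cox4i2. The sign was the same in both sexes for 68 of 87 genes, 52 below 0 and 16 above. In females 59 of 87 lay below 0 (67.8%), against 53.5% of all probe sets and 51.6% of those above the median level. In males 64 lay below 0 (73.6%), against 43.0% of all probe sets and 53.0% of those above the median level. Female and male differences come from different mice, and across the 87 genes, which are not independent replicates, Pearson's r was 0.82 and Spearman's rho 0.75. With 3 mice per group, the counts of lower genes changed when single arrays were left out, as did the calls over all probe sets. In females the 9 became 3 without KK female 1, 4 without KK female 2 or C57BL/6J female 2, and 5 when KK male 1, C57BL/6J male 1 or C57BL/6J female 3 was left out. In that order, female calls over all probe sets, in either direction, fell from 1378 to 905, 1016, 920, 1187, 1253 and 932. In males the 5 became 1 without KK male 1, KK male 2 or C57BL/6J male 3, 2 without C57BL/6J male 1 and 3 without C57BL/6J male 2. Male calls over all probe sets fell from 1092 to 662, 753, 711, 835 and 765 in that order.

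**Figure D3:**
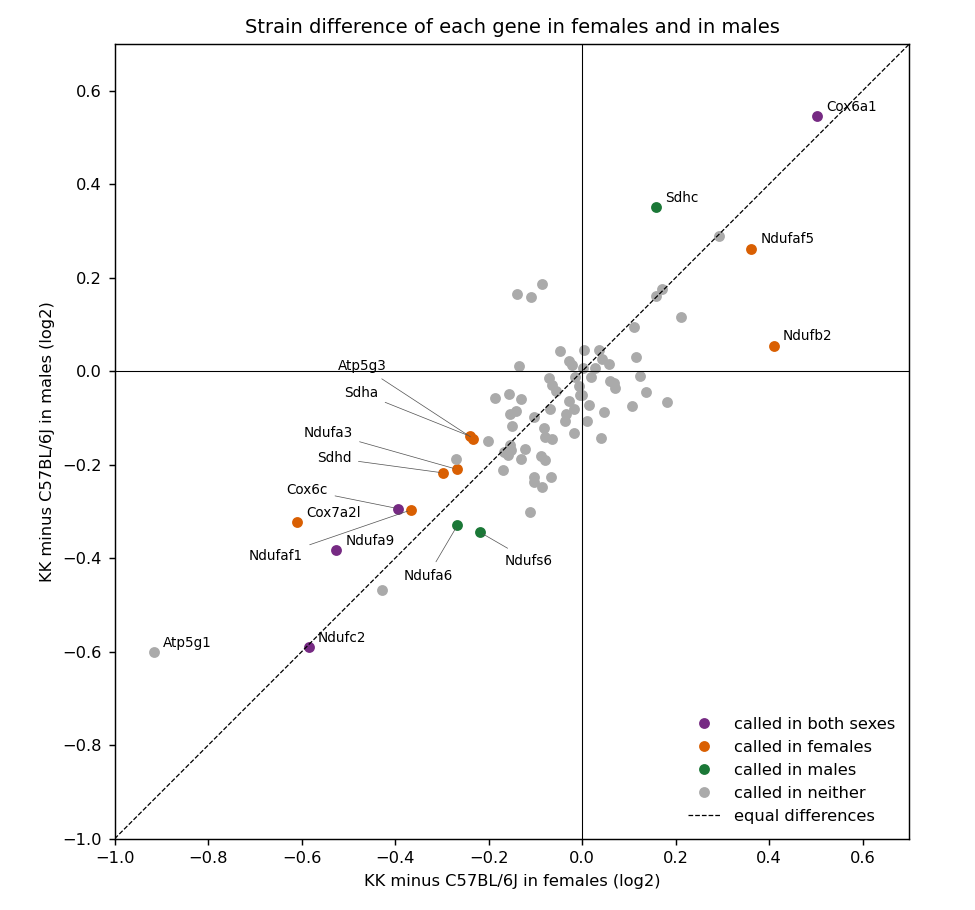
Difference between KK and C57BL/6J of each of the 87 genes in females (horizontal axis, log2) and in males (vertical axis, log2). Colours mark the sexes in which a gene was called and the dashed line marks equal differences. Of the 87 points, 52 lie below 0 on both axes, 16 lie above 0 on both axes, and Cox6a1, Ndufc2, Ndufa9 and Cox6c are called in both sexes.

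Sex had little measured effect on the set. Over both strains, Ndufb3 was the only gene called (1 of 87, against 3.66% of all probe sets), and 8 genes (9.2%) had an unadjusted p under 0.05, against 15.8% of all probe sets. These 8 were higher in males, as were 7.1% of all probe sets at that p. Ndufb3, an accessory subunit of complex I, measured 7.34, 7.59 and 7.61 in KK males, against 7.14, 6.82 and 7.14 in KK females. In C57BL/6J it measured 7.40, 7.28 and 7.38 in males, against 7.07, 7.12 and 7.23 in females. Males were above females of their own strain throughout, and the difference was 0.35 (SE 0.07, adjusted p = 0.017). Within KK it was 0.48 (adjusted p = 0.029), the single call in that strain (2.17% of all probe sets), and it was lost without KK female 1, KK female 2, KK male 2 or KK male 3. Within C57BL/6J it was 0.21 (adjusted p = 0.62), and limma called 0 genes there (1.03% of all probe sets), while 5 (5.75%) had an unadjusted p under 0.05, against 8.17% of all probe sets. The genes on the X chromosome, Ndufa1, Ndufb11 and Cox7b, had sex differences of -0.02, 0.05 and 0.01 over both strains and were not called. Although few genes were called, 65 of 87 differences between males and females lay above 0 (74.7%), against 58.6% of all probe sets and 47.3% of those above the median level. The median was 0.04, against 0.02 for all probe sets. Markers of other cells also differed between the sexes. In males 6 of 7 Kupffer cell and macrophage markers were lower, among them Vsig4 (-1.11), Timd4 (-0.83) and Adgre1 (-0.78), and their sums were 10.45 to 11.63 in males and 11.58 to 12.40 in females. Also lower in males were 3 of 6 sinusoidal endothelium markers (sums of 11.55 to 11.71 in males and 11.73 to 12.05 in females) and 1 of 6 stellate cell markers. Higher in males were 1 of 7 hepatocyte markers (sums of 16.21 to 16.31 in males and 16.16 to 16.26 in females) and 1 of 2 erythroid markers, Alas2 (1.15). The other erythroid marker, Slc4a1, had the opposite sign and was not called (-0.15). The part of these cells in the lean to higher values in males was not tested.

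To see which arrays carried these shifts, each gene was set against its own mean over the 12 arrays and the median was taken over the genes. Over all 87 genes this median ran from -0.09 to -0.00 in KK females, against -0.02 to 0.03 in C57BL/6J females, and from -0.03 to -0.01 in KK males, against 0.05 to 0.09 in C57BL/6J males. Complex I medians were -0.08, -0.09 and 0.02 in KK females, against -0.04, 0.01 and 0.03 in C57BL/6J females. In males they were -0.00, -0.05 and -0.03 in KK, against 0.06, 0.06 and 0.10 in C57BL/6J. The ranges of complex I thus overlapped between the strains in females and not in males. Single arrays stood out in the smaller classes: KK female 1 had -0.17 in complex II and -0.13 in ATP synthase, KK female 2 had -0.21 in the assembly factors and -0.14 in complex III, and C57BL/6J male 3 had 0.15 in complex III. The interquartile range of all values was 2.97 for both KK female 1 and C57BL/6J female 3. The median over all 87 genes was -0.09 in KK female 1 and 0.03 in C57BL/6J female 3. Both are single arrays, and the part of array spread in the shifts was not tested.

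**Figure D4:**
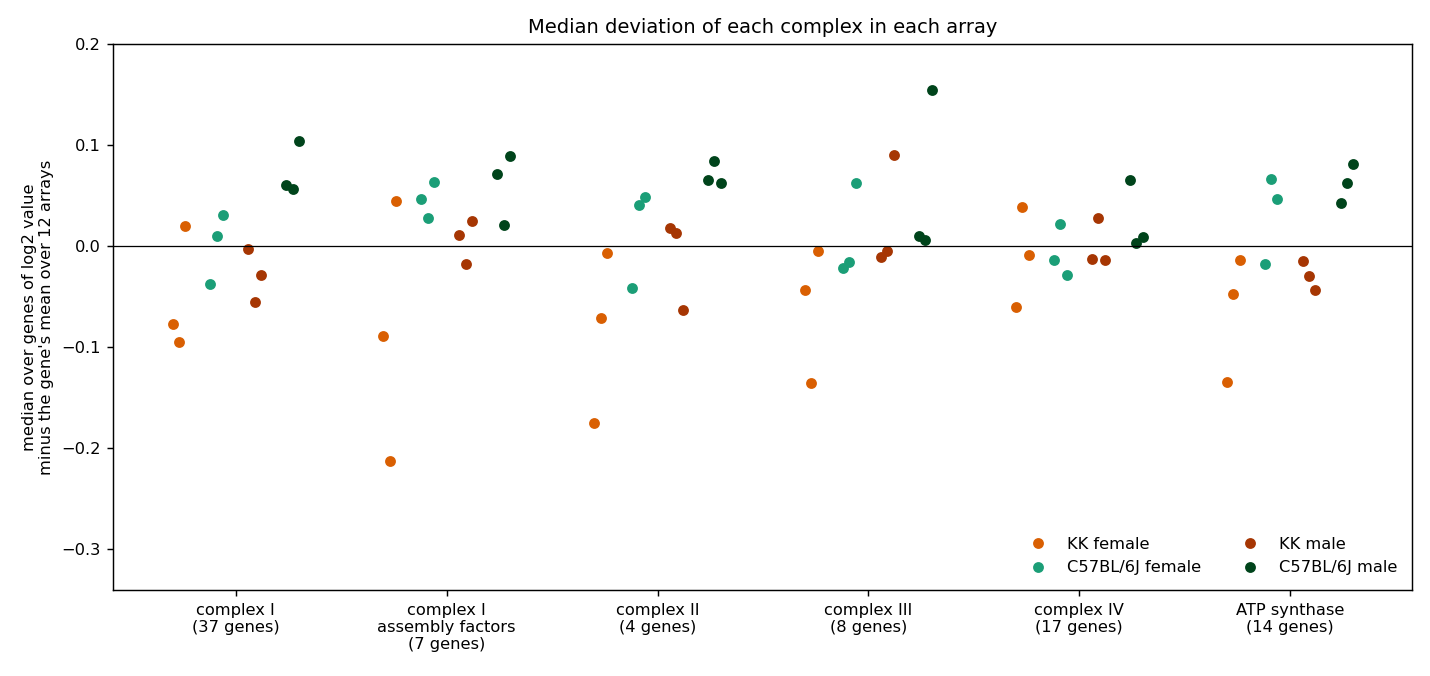
Median over the genes of a class of the log2 value minus the mean of that gene over 12 arrays (vertical axis), for each class of genes (horizontal axis). Each point is 1 array, in the order KK females, C57BL/6J females, KK males and C57BL/6J males within a class. C57BL/6J males lie at 0.06 to 0.10 in complex I, above every KK array, and the lowest points are KK female 2 in the assembly factors (-0.21) and KK female 1 in complex II (-0.17).

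The 87 genes lay on 19 chromosomes and the 23 called ones on 13. Of the 230 nearest measured genes around them, 5 on each side of each, 40 were called between the strains (17.4%), a share between the 11.7% of all probe sets and the 20.2% of those above the median level. Around Sdhc, 6 of 10 neighbours were called. Of these, 1 was higher, Pcp4l1 (0.82), and 5 were lower, opposite to Sdhc, among them Cfap126 (-0.31). Around Sdhd, 4 of 10 were called and all were lower, as Sdhd was, among them the adjacent Timm8b (-0.27). Around Ndufc2, 2 of 10 were lower and 1 was higher, the adjacent Thrsp, a lipogenic gene (1.42). These neighbours were named after their values were seen.

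Genes that serve the chain from outside it gave a further comparison. In the citric acid cycle and pyruvate dehydrogenase list, 6 of 17 genes were lower in KK and 1 was higher, with a median of -0.14. The lower ones held all 3 subunits of NAD-dependent isocitrate dehydrogenase, Idh3a (-0.44), Idh3g (-0.28) and Idh3b (-0.22), as well as Pdhb (-0.31), Ogdh (-0.31) and Dlat (-0.26), and Pdk2, a kinase that inhibits pyruvate dehydrogenase, was higher (0.32). Of 76 mitochondrial ribosome genes, 15 were lower, led by Mrpl30 (-0.64) and Mrps27 (-0.57), 1 was higher, Mrps18a (0.34), and the median was -0.06. Among 28 other assembly factors, Tmem126b (-0.46) and Foxred1 (-0.41), both of complex I, were lower and Acad9 (0.21), of complex I, and Cox18 (0.42), of complex IV, were higher. Among 14 electron carriers and feeders, Etfb (-0.20) and Etfdh (-0.19), which bring electrons from fatty acid oxidation to ubiquinone, were lower and Pdss2 (0.30), of ubiquinone synthesis, was higher. Of 9 genes of ADP, phosphate and proton exchange, Vdac2, an outer membrane channel, was lower (-0.36) and Nnt, which is partly deleted in C57BL/6J, was higher (0.97). Of 14 genes of mitochondrial biogenesis, Nrf1 alone was called (-0.24). The median was -0.01 for the other assembly factors, -0.01 for electron carriers and feeders, -0.08 for exchange and -0.0042 for biogenesis. Over all probe sets 5.42% were called higher and 6.31% lower in this comparison, and above the median level 8.95% and 11.2%. These lists were not recounted after quantile or cyclic loess normalization.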

How the data were processed

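Liver RNA of 12 mice was measured on 1 Affymetrix array each. Per the submitters' processing notes, the authors made the deposited log2 values with RMA and the affy package, whose versions are not given in the sources used here. RMA corrects background and summarises probes, so low values are compressed towards background. Quantile and cyclic loess normalization were applied here to the deposited values, on top of any normalization made by the authors. No scanner files were used here, and the number of arrays limits the precision. Symbols came from the platform's annotation: 18786 probe sets had 1, 6 had several and 2420 had none. All 87 genes matched RefSeq (GRCm38.p6) by gene number. Cross-hybridisation with processed pseudogenes was not tested. Probe sequences were not among the sources used here, so any effect of sequence differences between the strains on hybridisation was not tested either.

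All probe sets were fitted in R 4.3.3 with limma 3.58.1 (lmFit, eBayes), with 1 mean per strain and sex, no filter, two-sided tests and Benjamini-Hochberg adjustment over 21212 probe sets. A total of 7 comparisons were made: strain over both sexes and in each sex, sex over both strains and in each strain, and the interaction. Adjusted p-values and SEs are limma's. The labels do not tie replicates to litters, and they give no batch. The members, lists and tests were chosen with earlier results of these data known. Named genes were all called members, complex II, cytochrome c1, subunit c, X-linked genes, tissue isoforms and the extremes of each complex. Alternatives were quantile and cyclic loess normalization, a filter at the median level, the brightest probe set of each gene, a prior with an intensity trend and robust fit, array weights, the interquartile range as covariate, the replicate number as block, fits of the compared groups alone, and omission of each array in turn. The pipeline was tested on simulated data.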

Additional observations from a re-analysis of the deposited data

How the results depend on the processing

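Of the 23 genes called between the strains, 14 kept their call under each of 8 alternatives and without any single array. Another 2, Atp5g1 and Ndufaf5, did so under 7, since the filter at the median level removes them. The brightest probe set per gene leaves the values of the set as they were. The 7 that lost it under at least 1 were Atp5c1, Atp5g3, Cyc1, Ndufa13, Ndufaf2, Ndufs8 and Ndufv1, and none of the called genes changed sign. The cause was not tested for any of the following. Quantile normalization gave 8 higher genes between the strains, 3 lower in males and 2 higher in males than in females, and array weights gave 5 higher and 11 lower in males and 2 higher in males than in females. With the interquartile range as a covariate, 8 genes were higher between the strains and 2 were higher in males than in females (all probe sets: 3703 and 1018). In fits of only the groups compared, 4 were lower in females, 2 were lower in males and 0 were higher in KK males than in KK females. Over all probe sets these fits called 950 in females, 880 in males and 190 between KK males and KK females. The main fit called 1378, 1092 and 460. The median strain difference was -0.02 over both sexes and -0.03 in males after quantile normalization, -0.03 in each after cyclic loess, and -0.03 in females with array weights. Leaving out each array in turn gave 4 to 6 higher and 13 to 19 lower between the strains, 2 to 3 higher and 3 to 10 lower in females, 2 higher and 1 to 6 lower in males, and 0 to 1 higher in KK males. Calls over all probe sets ran from 2004 to 2371 between the strains and from 905 to 1412 in females. They ran from 662 to 1163 in males and from 160 to 512 between KK males and KK females. The labels do not say whether replicate numbers pair the mice, and the main fit did not pair them. Correlations of same-numbered arrays, after removal of group means, ran from -0.19 to 0.44. Of 12 arrays, 8 correlated best with an array of their own number in another group, a hint from the data and not the design. Whether the numbers mark pairs or batches cannot be decided here. With the replicate block, 6 genes were higher and 19 lower between the strains, 8 were lower in males and 2 were higher in males than in females. Calls over all probe sets were then 3113 between the strains, 1477 in males and 1003 between the sexes. Levels near background limit at least Atp5g1, Ndufaf5, Ndufb4 and Cox7b2. The background was read from 3 Y-linked genes only, and 5 genes lay under the alternative level of 5.19 in the mean of every group.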
